A study of Mus musculus with 15 samples.

Results

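The 34 genes described here encode proteins of the Z-disc, the M-band and the thick filament of the muscle sarcomere, together with proteins that anchor, fuel or fold them. They were chosen by name as genes of sarcomere structure, with actins, myosin chains, troponins and leiomodins left out, and all 34 were found by symbol among the 49315 Ensembl gene IDs of the deposited tables. Of the 34, 6 belong to the thick filament and M-band (Mybph, Mybpc1, Mybpc2, Myom1, Myom2, Myom3), 2 encode giant ruler proteins (Ttn, Neb) and 13 belong to the Z-disc (Actn2, Actn3, Tcap, Ldb3, Myoz1, Myoz2, Myot, Mypn, Pdlim3, Csrp3, Flnc, Synpo2, Igfn1). A further 7 serve the costamere, the intermediate filaments or the muscle-tendon junction (Xirp1, Xirp2, Nrap, Des, Smpx, Cmya5, Ankrd2), 3 are enzymes (Ckm, Ckmt2, Mylk2), and 3 are chaperones or a methyltransferase (Unc45b, Cryab, Smyd1). Their RNA was measured by polyA RNA sequencing in primary myoblasts, the precursor cells of muscle fibres, from muscle of wild-type C57BL/6J mice. Each group held 5 libraries. The cells received a control small interfering RNA (siCtrl), one against Lmod1, an actin filament nucleator (siLmod1), or one against Sirt1, an NAD-dependent deacetylase (siSirt1). All groups shared the wild-type genotype, the lipid transfection reagent and 1 day of differentiation. The sources used here do not give the age or sex of the mice or how many animals gave each culture. The study's design names 5 primary lines, and the titles carry the replicate numbers 1, 2, 3, 4 and 7 in every group, so each number is called a line here. The design text asks for early changes of the myogenic program under each knockdown, as part of a search for effectors behind a rescue seen when both genes were knocked down together.

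A sarcomere is built between Z-discs, where alpha-actinins (Actn2, Actn3) cross-link the barbed ends of thin filaments, and is centred on the M-band, where myomesins (Myom1 to Myom3) cross-link myosin filaments. Titin (Ttn) runs from the Z-disc, where telethonin (Tcap) caps its end, to the M-band, and nebulin (Neb) lies along the thin filament. When myoblasts leave the cell cycle, myogenin and MEF2 factors switch these genes on, and the first premyofibrils hold alpha-actinin before mature titin and M-band lattices form. Desmin (Des) is an exception, since it is already made in proliferating myoblasts.

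The bases just upstream of 7 members are printed because these genes moved in different directions or differed most between lines in the results that follow. Mybph, Ldb3 and Myoz2 were lower and Pdlim3, Igfn1 and Nrap higher in siLmod1 in the fit with the line as a block, and Xirp2 had the widest spread between lines. Each run is the 250 bases before the annotated start in RefSeq, build GRCm38.p6 (the same build as mm10), written 5′ to 3′ on the gene's own strand. Capitals mark matches to 4 motifs known from muscle genes, and the places are chr1:134193198-134193447, plus strand for Mybph, chr14:34588682-34588931, minus strand for Ldb3 (the first listed of 2 start sites), chr3:123034988-123035237, minus strand for Myoz2, chr8:45885237-45885486, plus strand for Pdlim3, chr1:136006343-136006592, minus strand for Igfn1, chr19:56390039-56390288, minus strand for Nrap and chr2:67445752-67446001, plus strand for Xirp2.
Mybph: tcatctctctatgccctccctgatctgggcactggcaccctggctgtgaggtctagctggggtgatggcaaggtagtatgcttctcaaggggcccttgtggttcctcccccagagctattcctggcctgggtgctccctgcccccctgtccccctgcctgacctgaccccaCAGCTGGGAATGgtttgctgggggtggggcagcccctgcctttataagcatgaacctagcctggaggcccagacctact
Ldb3: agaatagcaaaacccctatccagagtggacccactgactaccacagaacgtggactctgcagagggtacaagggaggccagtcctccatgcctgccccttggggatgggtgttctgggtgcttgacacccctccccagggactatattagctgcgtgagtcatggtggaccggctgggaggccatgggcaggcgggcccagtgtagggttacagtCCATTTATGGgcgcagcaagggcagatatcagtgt
Myoz2: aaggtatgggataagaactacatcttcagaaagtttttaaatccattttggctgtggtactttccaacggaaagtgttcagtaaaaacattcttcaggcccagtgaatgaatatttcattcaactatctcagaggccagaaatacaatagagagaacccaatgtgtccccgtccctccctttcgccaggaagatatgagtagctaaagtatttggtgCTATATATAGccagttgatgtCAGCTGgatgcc
Pdlim3: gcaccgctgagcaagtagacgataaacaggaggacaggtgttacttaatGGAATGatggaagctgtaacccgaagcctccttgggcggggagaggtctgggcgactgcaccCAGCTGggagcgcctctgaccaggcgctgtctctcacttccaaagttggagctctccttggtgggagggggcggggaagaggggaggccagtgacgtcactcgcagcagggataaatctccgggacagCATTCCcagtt
Igfn1: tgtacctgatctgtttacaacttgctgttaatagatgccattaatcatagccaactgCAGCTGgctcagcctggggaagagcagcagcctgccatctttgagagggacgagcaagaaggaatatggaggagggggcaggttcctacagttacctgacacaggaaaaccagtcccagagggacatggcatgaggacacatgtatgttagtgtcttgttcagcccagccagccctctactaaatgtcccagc
Nrap: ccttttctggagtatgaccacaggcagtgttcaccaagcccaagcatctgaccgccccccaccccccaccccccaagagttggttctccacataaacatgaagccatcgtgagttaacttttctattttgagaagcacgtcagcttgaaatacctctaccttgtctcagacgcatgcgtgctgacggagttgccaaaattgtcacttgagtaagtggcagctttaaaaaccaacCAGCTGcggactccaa
Xirp2: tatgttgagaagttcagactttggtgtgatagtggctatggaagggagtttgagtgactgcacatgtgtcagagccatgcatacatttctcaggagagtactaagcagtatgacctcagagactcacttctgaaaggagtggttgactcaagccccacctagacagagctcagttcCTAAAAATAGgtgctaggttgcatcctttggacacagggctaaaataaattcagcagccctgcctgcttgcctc

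The motifs were the E-box CAGCTG, which is its own reverse complement and is preferred by myogenic basic helix-loop-helix factors; the MCAT element GGAATG, bound by TEAD factors; the MEF2 site; and the CArG box, bound by SRF. Both strands were searched, and a match describes the letters in this window, not a bound site. Of the 34 members, 25 had a promoter in the RefSeq table. CAGCTG was present before 9 of these 25 (36.0%), namely Ckm, Ckmt2, Des, Igfn1, Mybpc1, Mybph, Myoz2, Nrap and Pdlim3, against 14.7% of all 27025 genes with a promoter of the same length. GGAATG was present in 5 (20%, against 14.4%), a MEF2 match in 5 (20%, against 3.42%) and a CArG match in 2 (8.0%, against 1.62%). In Mybph, CAGCTG at 79 to 74 bases before the start is followed directly, without overlap, by GGAATG at 73 to 68. The MEF2 match of Myoz2 lies 33 to 24 bases before the start and its CAGCTG 12 to 7. The printed Ldb3 window holds a CArG match 35 to 26 bases before the start, and Xirp2 a MEF2 match at 74 to 65.

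The library totals were 26097889 to 33601761 counts for siCtrl, 27135398 to 31829009 for siLmod1 and 21004908 to 27815744 for siSirt1. A count of 3, the upper limit that 0 counts allow, corresponds to 0.0893 to 0.143 CPM (counts scaled to the library total). Lmod1 averaged 29.31 ± 14.97 CPM in siCtrl and 3.46 ± 1.51 in siLmod1 (SD, n = 5), a difference of -2.74 in mean log2 CPM (exact two-sided permutation p = 0.00794, the smallest this design allows). Sirt1 averaged 25.3 ± 6.64 CPM in siCtrl and 6.65 ± 3.73 in siSirt1, a difference of -1.97 (exact permutation p = 0.00794). In edgeR across all genes, by group alone, the adjusted p was 0.069 for Lmod1 in siLmod1 and 0.074 for Sirt1 in siSirt1, and with the line as a block 2.8e-06 and 0.0027. All 8 myoblast and myocyte markers averaged 1 CPM or more, and their sum was 6180 to 8300 CPM over the 15 libraries. Single markers varied more, with Myod1 at 620 to 982 CPM, Myog at 466 to 2920 and Myf5 at 2.1 to 288. Line 4 stood apart. Principal component 1 held 43.3% of the variance, and there its 3 libraries lay at 81.4 to 82.5 and the other 12 at -38.5 to 1.22. The 4 endothelial markers summed to 45.4 to 96.5 CPM in line 4 and 1.05 to 2.63 in the other lines, with Tek at up to 96.2 CPM and Kdr, Cdh5 and Pecam1 never above 1.89. The siSirt1 library of line 7 stood alone at -69.1 on the second component, and that of line 1 lay nearer to line 3 than to the rest of line 1 on the third (-31.7, against -35.4 to -26.4 and -9.5 to -6.85). Results are therefore also given without lines 1, 4 and 7 where that matters.

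In control cells the 34 genes covered a wide range of levels. On the TPM scale, which corrects for library total and gene length and so allows genes to be compared, desmin had the highest mean with 2373 ± 439 TPM (SD, n = 5), rank 39 of all genes. It was followed by Mybph, a myosin-binding protein of fast and developing muscle, with 1707 ± 792 TPM, and by Cryab, a small heat shock protein that guards desmin and filamin, with 1586 ± 145. Mybph was above desmin in lines 2 and 3, and the SDs of Mybph overlap those of both neighbours, so the place of Mybph among these 3 genes is not resolved. Mybph shares 49.89% of its exon bases with Adora1, Cryab 17.04% with Hspb2, and Ckm 15.48% and Cmya5 21.69% with unnamed gene models, and the library kit keeps no strand, so part of their reads could come from those genes.

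Among Z-disc genes, the filamin Flnc had 973.5 ± 299 TPM, alpha-actinin Actn2 665.7 ± 457 and Actn3, the alpha-actinin of fast fibres, 507.3 ± 239. Pdlim3, a PDZ-LIM protein that binds alpha-actinin, followed with 503.7 ± 307 and Ldb3, another of that family, with 298.3 ± 161. Telethonin (Tcap) had 177.8 ± 96.0 TPM and its partner titin 177.0 ± 48.8, while nebulin had 368.6 ± 138. The calsarcins differed: Myoz2, the form of slow and heart muscle, had 68.61 ± 56.2 TPM and Myoz1, the fast form, 7.781 ± 5.27. In the M-band, the mean of Myom3 (301.2 ± 100) was above those of Myom2 (167.0 ± 111) and Myom1 (165.1 ± 103), with overlapping SDs. That order did not hold in line 2, where they had 322.2, 310.3 and 323.8 TPM. The slow myosin-binding protein C, Mybpc1, had 349.7 ± 184 TPM and the fast Mybpc2 1.391 ± 1.18, the lowest mean of all members. Of the enzymes, muscle creatine kinase Ckm had 305.4 ± 138 TPM, sarcomeric mitochondrial creatine kinase Ckmt2 15.74 ± 14.2 and skeletal myosin light chain kinase Mylk2 13.41 ± 5.46. The myosin chaperone Unc45b (341.2 ± 80.1) and its partner methyltransferase Smyd1 (506.4 ± 210) lay within the upper 11 members.

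**Figure D1:**
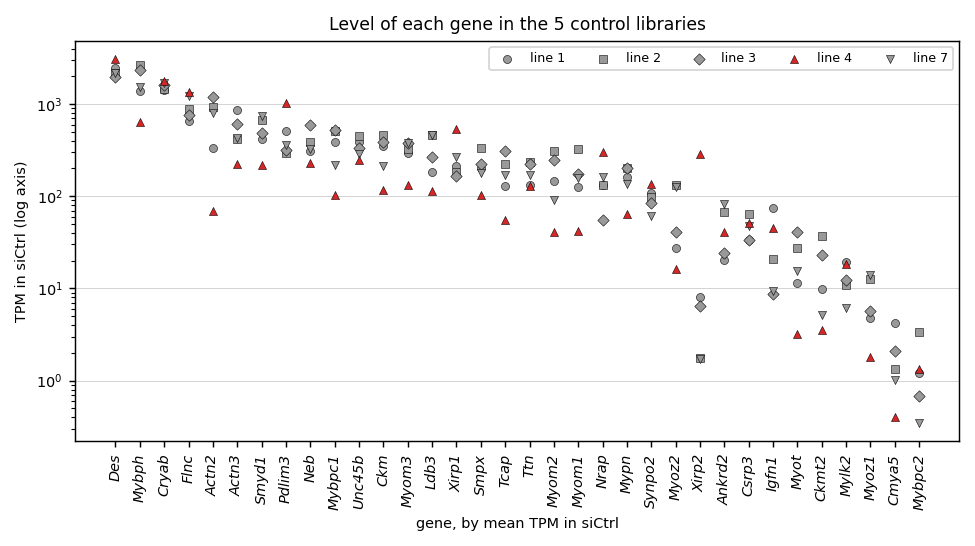
TPM on a log axis for each of the 34 genes, ordered by mean, in the 5 control libraries (1 point per line, line 4 as red triangles). Desmin leads at a mean of 2373 and Mybpc2 is lowest at 1.391; the red triangle is far above the other points for Xirp2 and far below them for Actn2.

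Nearly all members differed between the primary lines. With group held in the model, 32 of 34 members differed between the 5 lines (edgeR F test, Benjamini-Hochberg adjusted p under 0.05), where 62.3% of all 15716 genes did. The median range between the highest and lowest line was 1.96 on the log2 scale for the members and 0.706 for all genes. Desmin (adjusted p = 0.13) and Cryab (adjusted p = 0.51) did not pass. The smallest p-values belonged to Cmya5, Xirp2, Mybpc1, Actn2, Myom1 and Tcap, and the largest to Mybpc2, Flnc, Unc45b, Csrp3, Des and Cryab.

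Line 4 was the lowest line for 21 of 34 members, against 31.9% of all genes, and line 2 the highest for 16, against 13.9%. Actn2 stood at 392.6, 1094, 1326, 83.2 and 913.6 CPM in the siCtrl libraries of lines 1, 2, 3, 4 and 7, the order used throughout. Line 4 was thus far below the rest, and over its 3 libraries its difference from the median of the other lines was -3.71 log2 units (edgeR adjusted p = 1.1e-05 for the line differences). Myom1, the main M-band cross-linker, stood at 230.9, 581.0, 299.9, 77.5 and 276.5 CPM, again lowest in line 4 and highest in line 2 (range 3.11 on the log2 scale, adjusted p = 1.5e-05). Mybpc1 had 568.4, 736.2, 714.5, 154.0 and 303.8 CPM (range 2.41, adjusted p = 1.1e-05), and Tcap ranged over 1.94 on the log2 scale (adjusted p = 2.2e-05).

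A few members went the other way in line 4. Xirp2, a Xin repeat protein of the cell junctions and costameres, stood at 31.1, 6.65, 23.2, 1114 and 6.27 CPM in siCtrl, so line 4 was far above the other 4 lines. Over the 3 groups line 4 lay 5.52 log2 units above the median of the other lines. The edgeR adjusted p of 1e-05 is for any difference among the 5 lines, not for line 4 alone. Its relative Xirp1 (396.9, 337.8, 295.8, 1019 and 477.2 CPM), Pdlim3 (851.1, 476.7, 497.8, 1740 and 569.4) and Nrap, a scaffold of assembling myofibrils (236.0, 229.4, 91.8, 545.6 and 272.4), were also highest there. Line 1 was the highest for Cmya5, which encodes the desmin-binding protein myospryn (16.0, 4.96, 7.53, 1.58 and 3.70 CPM; range 2.63 on the log2 scale, adjusted p = 8.3e-06). In siCtrl, line 4 also had the lowest Lmod1 level, 5.77 CPM against 23.5 to 41.0, and the lowest Myog, 783.5 CPM against 2039 to 2916, while Myod1 (635.8 CPM) lay within the range of the others (619.8 to 981.7). The higher endothelial marker sum of line 4, given above, came almost wholly from Tek. The part of other cells in the levels of line 4 was not tested. In bulk RNA, fewer cells that have begun to differentiate and less RNA per cell cannot be told apart.

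**Figure D2:**
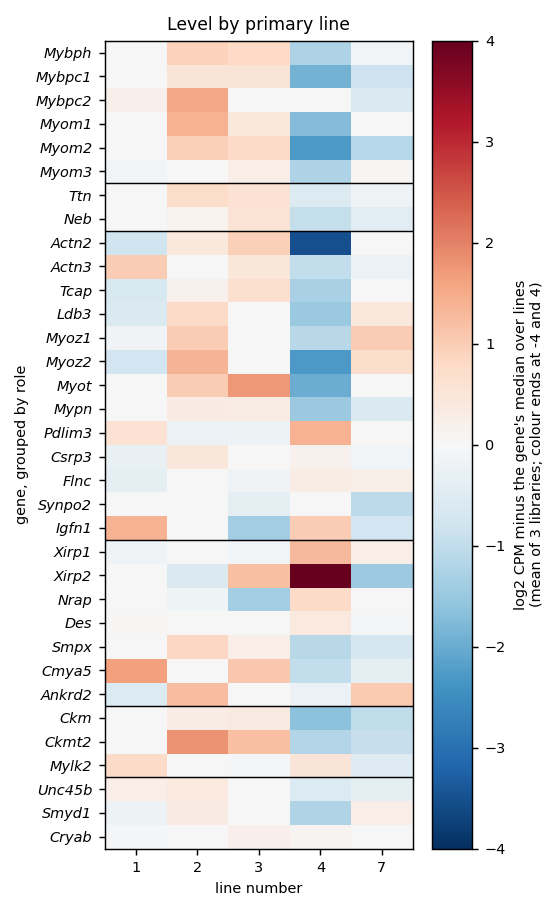
Mean log2 CPM over the 3 libraries of each line, minus the gene's median over the 5 lines, for the 34 genes grouped by role (colours end at -4 and 4). Line 4 is mostly blue, deepest for Actn2, and dark red for Xirp2, while Des and Cryab are nearly white throughout.

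After Lmod1 knockdown the members' share of all counts was near its control level: 2.53 ± 0.302% in siCtrl and 2.48 ± 0.306% in siLmod1 (SD, n = 5). Abundant members such as Ttn weigh most in that share. Compared by group alone, 0 of 34 members passed in edgeR (0.113% of 15022 genes did), 0 had an unadjusted p under 0.05 (1351 of the genes did), and DESeq2 also called 0. The line numbers pair the libraries, so the line was also fitted as a block. There, 6 members were higher and 6 lower in siLmod1, where 12.9% of genes were called higher and 16.5% lower, so neither count sets the members apart from other genes. The median log2 fold change was -0.111 with the block and -0.142 without it, beside -0.00965 and -0.0134 over all genes. With the block, 25 of the 34 fold changes were below 0 and 9 above it. The log2 fold changes given for single genes are from the blocked fit, with the adjusted p of both fits.

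The members that rose were Z-disc associates, 1 junction scaffold and 2 enzymes. Igfn1 (ENSMUSG00000051985, chromosome 1), an immunoglobulin and fibronectin domain protein found at the Z-disc, stood at 216.2, 59.5, 23.6, 132.9 and 25.7 CPM in siCtrl and 401.9, 199.2, 97.2, 314.3 and 216.7 in siLmod1. It was higher in every line although the groups overlap, with a log2 fold change of 1.71 ± 0.248 (SE; blocked adjusted p = 0.00079, group alone 0.56). Ckmt2 (ENSMUSG00000021622, chromosome 13) went from 4.75, 17.5, 10.3, 1.71 and 2.35 CPM to 10.3, 29.7, 19.0, 5.24 and 7.85, up in every line (1.10 ± 0.145; blocked adjusted p = 0.0005, group alone 0.79). Pdlim3 (ENSMUSG00000031636, chromosome 8) had 1266, 639.4, 823.1, 2694 and 996.4 CPM in siLmod1, each above the control of its line given earlier (0.58 ± 0.0641; blocked adjusted p = 0.00018, group alone 0.82). These 3 were also called when all 15 libraries shared 1 blocked fit, and the other 9 were not.

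Mylk2 (ENSMUSG00000027470, chromosome 2), the kinase that phosphorylates the regulatory myosin light chain of fast muscle, went from 18.2, 10.1, 11.1, 17.9 and 5.56 CPM to 33.8, 12.3, 15.6, 25.7 and 10.8 (0.57 ± 0.109; blocked adjusted p = 0.0034, group alone 0.75). Actn3 (ENSMUSG00000006457, chromosome 19) went from 797.0, 378.3, 536.9, 211.1 and 383.7 CPM to 952.0, 457.7, 684.8, 321.5 and 550.1 (0.35 ± 0.0592; blocked adjusted p = 0.0019, group alone 0.88). Both were higher in 5 of 5 lines, while Actn2, the other alpha-actinin, had -0.19 ± 0.0655 (blocked adjusted p = 0.055). Nrap (ENSMUSG00000049134, chromosome 19) had 324.6, 251.2, 121.4, 581.6 and 510.3 CPM in siLmod1 (0.35 ± 0.108; blocked adjusted p = 0.036, group alone 0.94). Its rise was uneven: the difference was 0.87 in line 7 and -0.00264 in line 4 after TMM scaling, and the call was lost without line 7 (adjusted p = 0.092), line 1 (0.11) or line 3.

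Of the members that fell, Myoz2 and Mybph were called in every fit that left a line out. Myoz2 (ENSMUSG00000028116, chromosome 3), a calsarcin that links calcineurin to the Z-disc, stood at 30.3, 142.4, 41.8, 18.2 and 133.7 CPM in siCtrl and 17.3, 84.8, 32.3, 8.88 and 76.1 in siLmod1. It was lower in every line (-0.79 ± 0.0844; blocked adjusted p = 0.00014, group alone 0.85). Mybph (ENSMUSG00000042451, chromosome 1) went from 1052, 1938, 1645, 492.3 and 1085 CPM to 842.5, 1337, 1204, 415.2 and 890.6, also lower in every line (-0.42 ± 0.0567; blocked adjusted p = 0.00057, group alone 0.83). Ldb3 (ENSMUSG00000021798, chromosome 14) went from 356.8, 881.6, 478.8, 225.1 and 861.0 CPM to 285.4, 694.5, 455.5, 207.4 and 816.2 (-0.24 ± 0.059; blocked adjusted p = 0.013, group alone 0.96). The call for Ldb3 was lost without line 1 (adjusted p = 0.074) or line 2.

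The calls for Csrp3, Myom3 and Cmya5 did not hold in every fit that left a line out. Csrp3, the muscle LIM protein, averaged 38.5 ± 11.3 CPM in siCtrl and 31.9 ± 6.87 in siLmod1 (-0.30 ± 0.074; blocked adjusted p = 0.012, group alone 0.78) and was lower in 4 of 5 lines. Myom3 averaged 568.3 ± 178 and 522.6 ± 150 CPM (-0.16 ± 0.0484; blocked adjusted p = 0.035, group alone 0.95). Cmya5 averaged 6.76 ± 5.61 and 4.80 ± 3.56 CPM (-0.49 ± 0.138; blocked adjusted p = 0.024, group alone 0.9). All 6 falls were absent from the calls when the 15 libraries shared 1 blocked fit, and without line 2 only Mybph and Myoz2 were called lower. Titin (-0.17 ± 0.0882, blocked adjusted p = 0.17), Tcap (-0.18 ± 0.079, 0.11), Myom1 (-0.11 ± 0.0521, 0.13), desmin (0.05 ± 0.0707, 0.66) and Ckm (0.11 ± 0.123, 0.54) did not pass.

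In CPM, 6 members were higher in 5 of 5 lines, where 23% of genes were, and 3 were lower in 5 of 5, where 14.5% were. No member's siLmod1 libraries lay wholly outside its control libraries, and 2.64% of genes did so. The motif matches given above can be set beside these directions. Of the 6 members called higher, 4 had a promoter in the table, and CAGCTG was in all 4 (Pdlim3, Igfn1, Nrap, Ckmt2). Of the 6 called lower, all had one, and CAGCTG was in 2 (Mybph, Myoz2). It was in 36.0% of members with a promoter and 14.7% of all genes. GGAATG was in 1 of the 4 and 1 of the 6, a MEF2 match in 0 and 2, and a CArG match in 0 and 1. Of 3 members with a promoter called lower in siSirt1, CAGCTG was in 1 (Mybph). The numbers are small and no test was made of them. Myog was lower in siLmod1 in the blocked edgeR fit (-0.50 ± 0.0546, blocked adjusted p = 0.00017, group alone 0.8), at 2000 ± 767 CPM in siCtrl and 1457 ± 579 in siLmod1. It was not called when all 15 libraries shared 1 blocked fit (adjusted p = 0.094). Myod1 was 765.2 ± 148 and 811.8 ± 134 CPM (0.04 ± 0.0577, blocked adjusted p = 0.67). Sirt1 itself was higher in siLmod1 in the blocked edgeR fit, at 38.1 ± 9.39 CPM (0.54 ± 0.0575, blocked adjusted p = 0.00014, group alone 0.51). With all 15 libraries in 1 blocked fit its adjusted p was 0.054, and its exact permutation p was 0.0397. Lmod1 was lower in siSirt1, at 17.1 ± 11.4 CPM, in 5 of 5 lines (-0.96 ± 0.191; blocked adjusted p = 0.027, group alone 0.72). That call was lost without line 1 (blocked adjusted p = 0.079), line 4 (0.059) or line 7 (0.065), and the exact permutation p was 0.278.

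**Figure D3:**
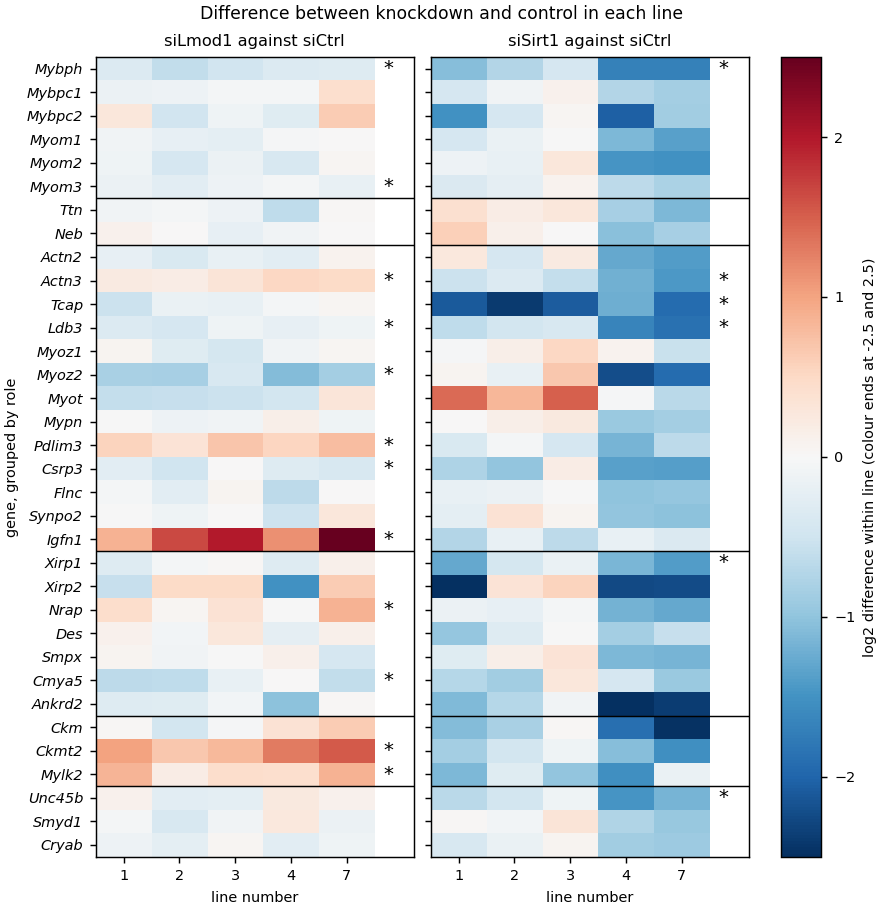
Difference in log2 CPM (TMM-scaled) between knockdown and control within each line, for siLmod1 on the left and siSirt1 on the right, with genes grouped by role (colours end at -2.5 and 2.5). An asterisk marks the 12 genes called for siLmod1 and the 6 called for siSirt1 in the blocked fit; in the right panel lines 4 and 7 are blue in nearly every row, while line 3 is close to white in most rows.

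After Sirt1 knockdown 6 of the 34 members were lower in the fit with the line as a block and the other 28 were not called, and the lines were uneven. The members held 2.15 ± 0.801% of counts in siSirt1 (SD, n = 5), with 1.34% in both line 4 and line 7, where the control libraries of all lines held 2.19% to 2.93%. The median log2 fold change over the 34 was -0.586 with the block and -0.51 without it, beside 0.00677 and 0.0194 over all genes. By group alone, 0 members passed in edgeR (0.127% of 14912 genes did), 7 had an unadjusted p under 0.05 (1440 of the 14912 genes did), and DESeq2 called 1. With the block, 6 members were lower, where 4.35% of genes were, and 0 were higher, where 2.72% were. DESeq2 with the block called 20 lower and 0 higher, among 1940 genes that it called in both directions together. The shares just given are those of edgeR. The share of genes that DESeq2 called lower was not worked out, so its 20 cannot be set against other genes. The 6 were Tcap, Mybph, Actn3, Ldb3, Xirp1 and Unc45b.

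Telethonin carried the clearest change. The control libraries held Tcap (ENSMUSG00000007877, chromosome 11) at 39.3, 67.6, 88.3, 17.0 and 49.9 CPM, and the siSirt1 libraries at 9.38, 13.0, 20.9, 8.04 and 14.5. It was lower in every line, and the groups overlap only because the control of line 4 lay at 17.0. The log2 fold change was -2.0 ± 0.16 (SE; blocked adjusted p = 0.0024, group alone 0.096). It was called whichever line was left out, with adjusted p of 0.014 without line 1, 0.0012 without line 4 and 0.012 without line 7. Titin, whose end Tcap caps at the Z-disc, did not follow: it stood at 4961, 8597, 7804, 4896 and 6154 CPM in siCtrl and 6937, 10170, 9767, 3156 and 3198 in siSirt1, higher in 3 lines and lower in 2 (-0.21 ± 0.248; blocked adjusted p = 0.64).

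Of the others, Mybph went from the control values given above to 536.4, 1221, 1250, 175.4 and 382.7 CPM, lower in every line and most in lines 4 and 7 (-1.12 ± 0.199; blocked adjusted p = 0.019, group alone 0.66). Ldb3 stood at 244.9, 670.1, 372.6, 81.3 and 269.8 CPM in siSirt1 (-0.997 ± 0.239; blocked adjusted p = 0.046, group alone 0.67). Actn3 stood at 586.3, 311.2, 365.2, 105.1 and 161.9 (-0.82 ± 0.166; blocked adjusted p = 0.029, group alone 0.69). Both were lower in 5 of 5 lines. Xirp1 (ENSMUSG00000079243, chromosome 9), a Xin repeat protein that binds actin at the muscle-tendon junction, had 175.2, 259.5, 270.6, 529.2 and 206.6 CPM (-0.88 ± 0.189; blocked adjusted p = 0.034, group alone 0.49). Unc45b (ENSMUSG00000018845, chromosome 11) went from 565.9, 634.8, 453.6, 359.9 and 399.3 CPM to 375.1, 480.7, 433.4, 149.0 and 201.5 (-0.78 ± 0.19; blocked adjusted p = 0.049, group alone 0.57). Without line 1 only Tcap was called, and without line 4 or without line 7 only Tcap and Mybph, so the other 4 calls were lost without any 1 of these lines. Without line 2 Ldb3, Xirp1 and Unc45b were also lost, and without line 3 Actn3 and Ldb3. Ldb3 was thus called in no fit that left a line out.

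Members just short of the threshold with the block were Csrp3 (-0.88 ± 0.223; adjusted p = 0.055), Igfn1 (-0.42 ± 0.109; 0.056), Mylk2 (-0.88 ± 0.229; 0.059), Ckm (-1.25 ± 0.327; 0.06), Ankrd2, a stretch-responsive ankyrin repeat protein (-1.44 ± 0.392; 0.067) and desmin (-0.55 ± 0.152; 0.07). Actn2 had -0.52 ± 0.269 (adjusted p = 0.27) and Myom1 -0.61 ± 0.203 (adjusted p = 0.11). Myotilin (Myot) went another way, from control levels of 8.05, 19.0, 27.3, 2.31 and 10.5 CPM to 23.7, 35.6, 79.8, 2.59 and 7.28 with Sirt1 knocked down. It was above its control in lines 1, 2 and 3 and below it in line 7. In line 4 it was above in CPM but at -0.02 after TMM scaling, and it was not called. In CPM, 9 members were lower in 5 of 5 lines, where 7.33% of genes were, and 0 were higher in 5 of 5, where 20.2% were. No member's groups were without overlap, and 3.21% of genes were.

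The lines split in how far the members moved. The median within-line difference over the 34 was -0.415 in line 1, -0.201 in line 2, 0.0433 in line 3, -1.14 in line 4 and -1.15 in line 7, and 27, 26, 15, 33 and 34 members were lower. For 25 of the 34 (73.5%) the differences of lines 4 and 7 both lay below those of lines 1, 2 and 3, against 20.4% of all genes. This grouping of lines was chosen after the values were seen. The exceptions were Mybpc2, Tcap, Myoz1, Igfn1, Xirp1, Xirp2, Des, Cmya5 and Mylk2. Ckm shows the split: it went from 329.8, 424.4, 337.2, 112.8 and 191.1 CPM to 164.9, 251.8, 353.0, 34.5 and 38.7. Sirt1's own difference was -2.45, -2.20, -2.46, -1.37 and -1.92, smallest in lines 4 and 7, and Myog's was -0.10, -0.00421, 0.16, -0.95 and -0.80. Myoblast and myocyte markers, which varied more singly than in sum, summed to 6220 to 7720 CPM in siSirt1 and 6500 to 8300 in siCtrl. The smooth muscle and pericyte markers, mostly Acta2, which differentiating myoblasts also make, summed to 1460 to 4420 and 2740 to 5890, and the fibroblast markers, mostly Col3a1, to 105 to 789 and 117 to 500. Mitochondrial transcripts took 1.93% to 2.91% and 1.92% to 2.73% of counts. The part of these shifts in the members' lower levels was not tested.

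**Figure D4:**
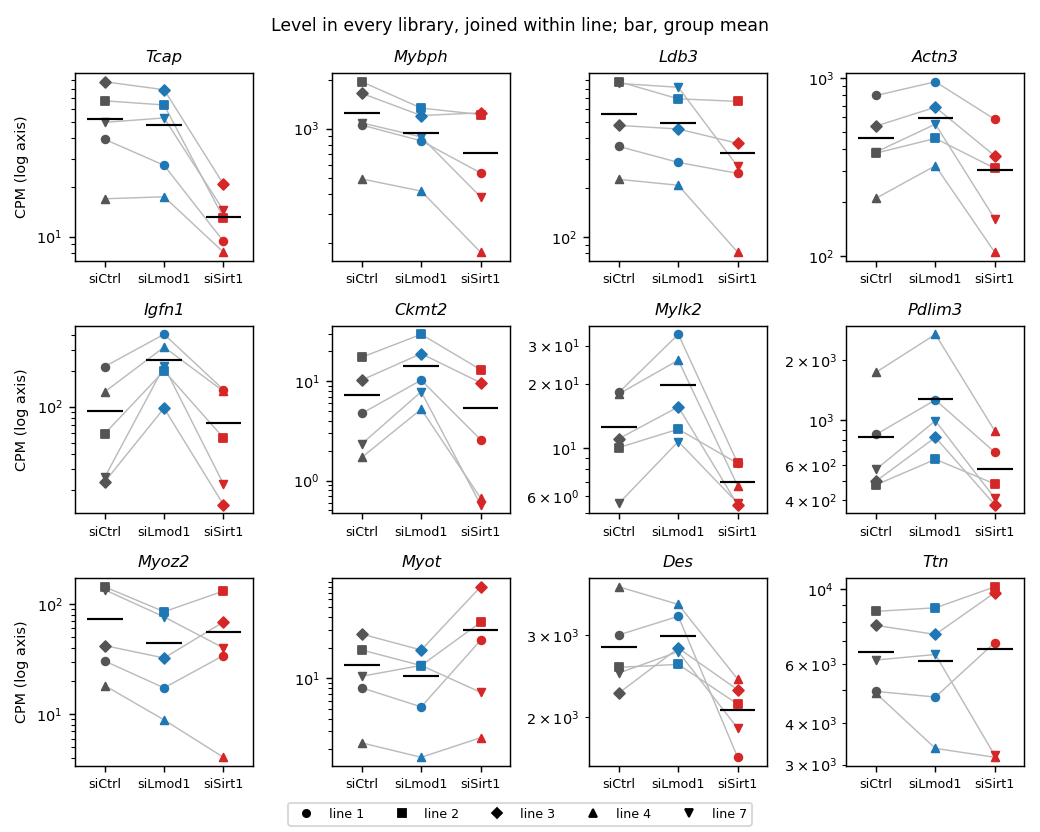
CPM on a log axis in every library for 12 members, with the 3 groups on the horizontal axis, 1 symbol per line joined across groups, and a black bar at each group mean. Tcap falls in siSirt1 in all 5 lines, Igfn1 and Ckmt2 peak in siLmod1 in all 5, and Ttn and Myot cross, going up in some lines and down in others.

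Setting the knockdowns against each other tests directly whether they differ. By group alone, 1 member passed, Mylk2 (-1.55 ± 0.329; edgeR adjusted p = 0.049), where 1.53% of 14998 genes did, and 8 of the 34 had an unadjusted p under 0.05, as did 2475 of the genes. That call was kept in 1 of the 10 fits that left out a single library. With the block, 9 members were lower in siSirt1 than in siLmod1, where 8.43% of genes were, and 0 were higher, where 7.43% were. The median was -0.549 with the block and -0.383 without it.

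Of these 9 members, 5 had risen in siLmod1 against control in the blocked fit (Igfn1, Ckmt2, Pdlim3, Mylk2 and Nrap), 2 had fallen in siSirt1 (Tcap, Xirp1), Actn3 had done both and Des neither. These comparisons share the control or knockdown libraries and are not independent. Igfn1 stood at 138.6, 54.9, 15.2, 134.4 and 22.6 CPM in siSirt1, below siLmod1 in every line (-2.17 ± 0.29; blocked adjusted p = 0.0044, group alone 0.18). Ckmt2 stood at 2.59, 13.1, 9.68, 0.667 and 0.571 (-2.05 ± 0.405; blocked adjusted p = 0.015, group alone 0.46). Tcap differed by -1.83 ± 0.153 (blocked adjusted p = 0.00098, group alone 0.053), Actn3 by -1.18 ± 0.211 (0.011, 0.29) and Pdlim3 by -1.13 ± 0.182 (0.0076, 0.16). Mylk2 stood at 8.56, 8.51, 5.48, 6.71 and 5.57 CPM in siSirt1, all below the lowest siLmod1 library at 10.8 (-1.47 ± 0.239; blocked adjusted p = 0.008).

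Desmin (ENSMUSG00000026208, chromosome 1) stood at 2999, 2556, 2252, 3801 and 2485 CPM in siCtrl, 3287, 2593, 2810, 3486 and 2761 in siLmod1 and 1640, 2131, 2288, 2411 and 1892 in siSirt1. The siSirt1 libraries all lay below the siLmod1 ones (-0.61 ± 0.142; blocked adjusted p = 0.026, group alone 0.12). Desmin and Mylk2 were the 2 members without overlap, where 5.48% of genes had none. Xirp1 (-0.79 ± 0.18; blocked adjusted p = 0.024) and Nrap (-0.92 ± 0.258; 0.046) were the remaining calls. Without line 1 the calls were Actn3, Tcap, Pdlim3, Igfn1 and Mylk2, and the same 5 plus Ckmt2 without line 4. Desmin was also not called without line 3 or without line 7 (blocked edgeR adjusted p = 0.063 without line 7). Of the fits that left a line out, only that without line 2 called desmin. In CPM, 11 members were lower in 5 of 5 lines, where 11.7% of genes were, and 0 were higher in 5 of 5, where 19.1% were. For 26 of 34 members (76.5%, against 21.4% of genes) the differences of lines 4 and 7 again lay below those of the other lines.

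Other genes of the sarcomere and its regulators moved as follows in the blocked fits, and 0 of these lists' genes passed by group alone in any of the 3 comparisons. Over all genes, these fits called 16.5% lower and 12.9% higher in siLmod1, and 4.35% lower and 2.72% higher in siSirt1. Of 38 further Z-disc and M-band genes tested, 16 were lower and 3 higher in siLmod1 (median -0.168). Vinculin (Vcl), which anchors actin at costameres, had -0.63 (blocked adjusted p = 6.3e-05), palladin (Palld) -0.56 (0.00016) and Pdlim7 -0.40 (0.00019), each lower in 5 of 5 lines. In siSirt1, 10 of the 38 were lower and 1 higher (median -0.359), led by the titin-binding Ankrd23 (-1.78, blocked adjusted p = 0.0031), Pdlim5 (-1.10, 0.0044) and the small heat shock protein Hspb7 (-1.63, 0.0057). Of 25 contractile protein genes, 11 were lower and 3 higher in siLmod1 (median -0.18), and 8 were lower and 0 higher in siSirt1 (median -0.612). In siLmod1 leiomodin 2 (Lmod2, 0.60, blocked adjusted p = 0.00015) and the fast light chain Myl1 (0.71, 0.00025) rose and the slow heavy chain Myh7 fell (-1.12, 0.00035). In siSirt1 Myh7 (-1.39, 0.0073), the slow troponin Tnnt1 (-0.83, 0.0085) and Tpm1 (-0.69, 0.016) fell. Of 21 regulators, 11 were lower and 1 higher in siLmod1 (median -0.179), among them Vgll3 (-0.64, 0.00013), Myog and Mef2a (-0.44, 0.00045), and 1 was lower and 0 higher in siSirt1 (median -0.219).

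Between the knockdowns, 8.43% of all genes were lower and 7.43% higher in siSirt1 than in siLmod1. Of the 38 Z-disc and M-band genes, 8 were lower and 1 higher. Ankrd23 (-1.47, blocked adjusted p = 0.0031), Hspb7 (-1.28, 0.0038) and the actin-binding Z-disc protein nexilin (Nexn, -0.86, 0.0042) were first by p. Of 24 contractile genes, 6 were lower and 0 higher, led by the fast heavy chain Myh4 (-1.97, 0.0037), Lmod2 (-1.23, 0.0044) and Tnnt1 (-0.80, 0.019). Of 21 regulators, 1 was lower, Mef2d (-0.43, 0.024), and 2 were higher, the TEAD cofactors Vgll3 (0.48, 0.016) and Vgll2 (2.40, 0.045). In siSirt1 against siCtrl the within-line medians of the contractile genes were also lowest in lines 4 and 7: -0.652, -0.252, -0.0813, -1.02 and -1.09. The medians of the 38 further Z-disc and M-band genes were -0.297, -0.00512, 0.0656, -0.879 and -0.768, and those of the 21 regulators -0.0234, -0.00421, 0.115, -0.57 and -0.571.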

How the data were processed

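PolyA RNA of 15 libraries (3 groups of 5) was sequenced. The labels give TruSeq v2 libraries of 150 bp reads. The authors deposited raw counts per gene and TPM values, one table for each pair of groups; a library's values were identical across the tables that hold it (15 columns compared for each unit, 0 values differed). Per the submitters' processing notes, DESeq2 and mm10 were used. The aligner, the counter and the annotation were not given in the sources used here. Gene symbols and coordinates were taken from GENCODE M21, on the same build. Gene IDs without a symbol (345) held 0.032% of counts. The deposited normalized counts were not used.

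The raw counts were tested in edgeR 4.0.16 (R 4.3.3). For each pair of groups, filterByExpr removed low genes, TMM scaled the libraries, and each gene was tested by the quasi-likelihood F test, with a call at adjusted p under 0.05 (Benjamini-Hochberg over all genes). All 34 members passed the filter in every comparison. Group alone was the planned fit (8 residual degrees of freedom), and the line number as a block (4 residual) was an alternative. The numbers pair the libraries: after removing group means, same-numbered libraries correlated at 0.329 to 0.939 (median 0.831, 15 pairs, 13219 genes) and others at -0.585 to 0.311, and 15 of 15 correlated best with their own number. The siSirt1 library of line 1 paired least clearly (0.329 and 0.372). Line differences used an F test of 4 coefficients over all libraries with group in the model. Other alternatives were DESeq2 1.42.0, RLE scaling, no filter, all 15 libraries in 1 fit and leaving libraries out. CPM is by library total, within-line differences use TMM-scaled log2(CPM + 0.5), and methods were tested on simulated data.

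Fold changes are given, per comparison, for the 12 members with the smallest blocked p and for Ttn, Actn2, Tcap, Myom1, Des and Ckm; for lines, the 6 smallest and 6 largest p; for other lists, the 3 smallest p. Members and lists were chosen with earlier results of these data known. Whether libraries of a group came from separate animals is not stated beyond the 5 lines, so the p-values measure the spread between these libraries only, and 3-count limits cover counting error only. Promoters are from RefSeq (GRCm38.p6).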

Additional observations from a re-analysis of the deposited data

Results flagged for a closer look

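Single libraries that lay far from the other 4 of their group were sought for each member and group by Dixon's gap test at the 95% level, which flags about 1 in 20 groups by chance. Of 102 groups, 7 were picked out, 6 of them in line 4. Xirp2 in line 4 stood at 1114 CPM in siCtrl (others 6.27 to 31.1), 417.6 in siLmod1 (others 9.93 to 33.3) and 267.9 in siSirt1 (others 1.10 to 35.3). Xirp1 in line 4 stood at 1019 CPM in siCtrl (others 295.8 to 477.2) and 529.2 in siSirt1 (others 175.2 to 270.6). Ckm in line 4 was low in siLmod1, at 155.6 CPM (others 302.3 to 344.3). Outside line 4, Mybpc2 in the siSirt1 library of line 2 stood at 2.89 CPM (others 0 to 0.81), a level close to that of the other libraries of line 2 (3.85 and 2.79).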

How the results depend on the processing

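The replicate block changed most calls. Genes called in siLmod1 against siCtrl numbered 17 by group alone, 4430 with the block, 261 in DESeq2, 3975 in DESeq2 with the block, 6 without the filter, 38 with all 15 libraries and 1427 with both all libraries and the block; in siSirt1 against siCtrl 19, 1054, 294, 1940, 7, 150 and 2530; and in siSirt1 against siLmod1 229, 2379, 922, 3171, 90, 554 and 4210. Leaving out 1 library gave 3 to 10, 3 to 13 and 54 to 247, and leaving out 1 line under the block 2833 to 4264, 332 to 580 and 946 to 1771. Blocked without the filter, siSirt1 against siCtrl had 1809. The cause was not tested.

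Members called higher in siLmod1 were 0 by group alone, 6 with the block, 6 in blocked DESeq2 and 3 with all libraries and the block; lower, 0, 6, 9 and 0, and 15 blocked without the filter (2 to 7 leaving out 1 line). In siSirt1, members lower were 0 by group alone, 6 with the block, 1 in DESeq2 (and with all 15 libraries), 20 in blocked DESeq2, 12 with all libraries and the block, and 23 blocked without the filter (1 to 6 leaving out 1 line). In siSirt1 against siLmod1, members lower were 1 by group alone, 9 with the block, 5 in DESeq2, 15 in blocked DESeq2, 0 without the filter, 2 with all 15 libraries, 15 with all libraries and the block, and 19 blocked without the filter (0 to 1 leaving out 1 library, 5 to 9 leaving out 1 line); Myot was the 1 higher with all libraries and the block, without the filter under the block, and without line 7 (0 to 1). The blocked fits with RLE scaling or no filter were added after the data were seen. For the alternative fits the share of all genes called in the same direction was not worked out. Their member counts therefore do not set the members apart from other genes. The members' median in siLmod1 ranged from -0.216 to 0.0118 leaving out 1 library.

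By group alone Ttn was at 0.06 in siSirt1 against siLmod1, and the blocked fits put it below 0 (-0.0532, -0.0486 in DESeq2, -0.0143 with all libraries). Leaving out 1 library by group alone turned the sign of these uncalled differences, which ranged in siLmod1 from -0.524 to 0.00325 for Ldb3, -0.983 to 0.0403 for Cmya5, -0.309 to 0.0151 for Ttn, -0.452 to 0.117 for Actn2, -0.397 to 0.0664 for Tcap, -0.542 to 0.299 for Myom1, -0.0611 to 0.175 for Des and -0.167 to 0.258 for Ckm; in siSirt1 from -0.783 to 0.0907 for Igfn1, -0.308 to 0.112 for Ttn, -0.849 to 0.0317 for Actn2 and -0.991 to 0.0674 for Myom1; and in siSirt1 against siLmod1 from -0.186 to 0.247 for Ttn, -0.695 to 0.196 for Actn2 and -0.86 to 0.166 for Myom1. The line differences called 32 members, and 26 to 34 under the alternatives. The permutation differences of Lmod1 in siLmod1 and of Sirt1 in siSirt1 kept their direction and their side of the threshold under the other pseudocounts and scaling, while in edgeR both passed with the replicate block only (adjusted p = 2.8e-06 and 0.0027, group alone 0.069 and 0.074). Depth limits Mybpc2 most: it lay below the 3-count limit in the siSirt1 libraries of lines 4 and 7 (0.0371 and 0 CPM).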
